A study of Mus musculus with 4 samples.

Results

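The miRNAs mmu-miR-15a-5p, mmu-miR-15b-5p, mmu-miR-16-5p, mmu-miR-195a-5p and mmu-miR-497a-5p make up the miR-15/16 family as chosen here, by name, from small RNA libraries of the E11.5 mouse forebrain. They are 5 of the 1059 mature miRNAs listed in the count files. The tissue was the rostral tip of the telencephalic primordium, in mutants and control littermates with 2 libraries per genotype. Rx-Dicer mutants (RxCre-DicerF/F) carry floxed Dicer alleles and the Rx3-Cre transgene, which expresses Cre under regulatory sequences of the homeobox gene Rx. Controls are labelled WT, and the description of the dissection gives them as DicerF/F, so that they carry the same floxed alleles without Cre. The Cre line was kept on a CD1 background and the floxed line on C57BL/6. Dicer is lost only in cells of the Rx lineage, recombination at this stage is described as lower dorsally than in the rostral and ventral telencephalon, and the number of embryos behind each library is not given in the sources used here.

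Dicer releases mature miRNAs from their hairpins, and a mature miRNA guides repression of mRNAs that pair with its seed, a short stretch near its 5′ end. The miR-15/16 family is known for a seed that pairs with mRNAs of the cell-cycle machinery, such as those of D- and E-type cyclins and of the kinases Cdk6, Wee1 and Chek1, and with that of the survival factor Bcl2. miR-15a and miR-16 are best known from a locus that is often lost in human chronic lymphocytic leukaemia, and miR-195 from the time at which mouse heart muscle cells stop dividing. The libraries hold miRNA counts only, so the cell-cycle role of the family was not measured in them.

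The mature sequences define the family and decide which reads can be told apart. They are given 5′ to 3′ from RefSeq (GRCm38.p6), with the seed, bases 2 to 8, in capitals. miR-322-5p and miR-503-5p, relatives from chromosome X, follow for comparison.
miR-15a-5p: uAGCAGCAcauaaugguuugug
miR-15b-5p: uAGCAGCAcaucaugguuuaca
miR-16-5p: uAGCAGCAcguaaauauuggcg
miR-195a-5p: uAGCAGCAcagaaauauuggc
miR-497a-5p: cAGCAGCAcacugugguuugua
miR-322-5p: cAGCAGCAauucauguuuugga
miR-503-5p: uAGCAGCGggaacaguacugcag

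The 5 members were identical from base 2 to base 9, which is 1 base beyond the seed. Of the 1679 mature names in the RefSeq table, 10 (0.596%) had this seed, and 9 of these 10 were listed in the count files. The 3′ parts fell into distinct types. miR-16-5p and miR-195a-5p differed at 2 positions over 21 bases (G10A and U11G, counted from the 5′ end of miR-16-5p). miR-15a-5p and miR-15b-5p differed at 4 positions over 22 bases (A12C, G20A, U21C and G22A, counted from the 5′ end of miR-15a-5p). miR-497a-5p was nearer to miR-15a-5p, with 5 differences, than to its own cluster partner miR-195a-5p, with 9. The first 18 bases of miR-15a-5p and miR-15b-5p, and also the first 19, differed at 1 position only. A short read of either could therefore fit the other if 1 mismatch was allowed. The mismatch settings are not given in the sources used here, and the counts carry no read lengths. For each other pair of members, the first 18 bases differed at 2 or more positions.

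The genes lie at 3 places, each with a pair of hairpins (GRCm38). Mir15b (chromosome 3, 69009772 to 69009835) and Mir16-2 (69009902 to 69009996) are on the plus strand, 66 bases apart, in an intron of Smc4, which encodes a condensin subunit. Mir16-1 (chromosome 14, 61631880 to 61631972) and Mir15a (61632027 to 61632110) are on the minus strand, 54 bases apart, within the non-coding gene Dleu2. The Mir15a hairpin was intronic in the 8 annotated Dleu2 transcripts that span it, and the Mir16-1 hairpin was intronic in 8 and overlapped an exon of 1. Mir497 (chromosome 11, 70234717 to 70234800), the source of miR-497a-5p, and Mir195a (70235042 to 70235135) are on the plus strand, 241 bases apart, and no host gene was found for them in GENCODE M21, where the hairpin of Mir497b overlaps Mir497 on the opposite strand.

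miR-16-5p is the member made at 2 of these places, from hairpins that differ outside the mature sequence. The hairpins are shown with miR-16-5p in capitals (RefSeq, GRCm38.p6, 5′ to 3′).
Mir16-2: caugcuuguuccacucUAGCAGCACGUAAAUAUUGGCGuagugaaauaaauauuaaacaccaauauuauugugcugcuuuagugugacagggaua
Mir16-1: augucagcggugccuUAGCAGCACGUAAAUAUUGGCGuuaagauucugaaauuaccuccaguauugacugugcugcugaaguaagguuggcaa

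The count files have a row for each of these hairpins. That of Mir16-2 held 1953 and 1494 counts in mutants 1 and 2, against 3033 and 2639 in controls 1 and 2. That of Mir16-1 held 1940 and 1488 in mutants, against 3035 and 2633 in controls. The rows differed by at most 13 counts in a library. A read of the mature sequence fits both hairpins, and the output of Smc4 and Dleu2 could not be separated for miR-16-5p. The row with the higher total, that of Mir16-2, was taken, which counts a shared read 1 time. miR-15a-5p and miR-15b-5p are the members that tell these places apart.

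Depth was 651031 and 516517 counts over mature miRNAs in mutants 1 and 2, against 1299067 and 1133553 in controls 1 and 2, so low members were measured with less precision in mutants. Levels are given as scaled CPM, reads relative to the library total after TMM scaling, which sets most miRNAs of the libraries to a common level. Each read stands for 1 small RNA, so these levels need no correction for length, but adapter ligation can favour some sequences. In bulk tissue, fewer cells of a type and less RNA per cell cannot be told apart. The forebrain miRNA miR-9-5p took 28.2% to 42.6% of a library.

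The order of the levels was the same in each of the 4 libraries, with miR-16-5p above miR-15b-5p, miR-15a-5p, miR-195a-5p and miR-497a-5p. By mean scaled CPM they ranked 50, 83, 169, 197 and 250 among the 274 miRNAs that reached the minimum of 10 counts in 2 libraries. The lowest value of each member over the 4 libraries was above the highest value of the member ranked next. Counting error within a library was nevertheless wide for the low members. The 50 counts of miR-15a-5p in mutant 1 had an exact Poisson 95% interval of 37.1 to 65.9, which overlapped that of the 41 counts of miR-195a-5p, 29.4 to 55.6. These intervals cover counting error only.

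**Figure D1:**
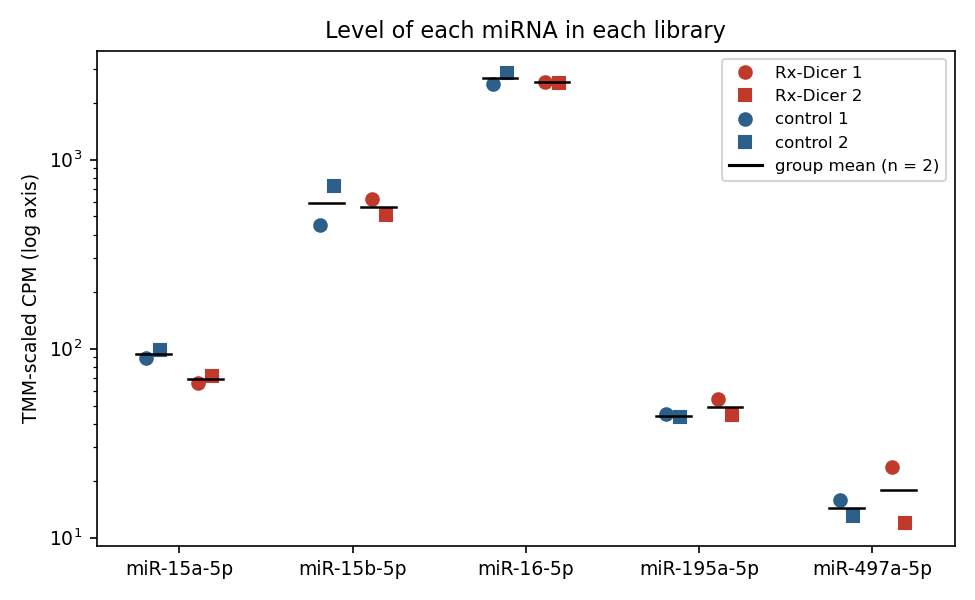
TMM-scaled CPM (log axis) of each member in each library, with circles for replicate 1, squares for replicate 2 and a bar for the mean of each genotype (n = 2 libraries). miR-16-5p lay between 2521 and 2861 in all 4 libraries, and the genotypes stood apart only for miR-15a-5p.

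The comparison of genotypes asked whether loss of Dicer from the Rx lineage had changed these miRNAs by E11.5. None of the 5 members passed edgeR's quasi-likelihood test, either after adjustment over all 274 miRNAs or at an unadjusted p under 0.05. For all tested miRNAs, 7 calls (2.55%) were lower in mutants and 0 (0%) higher at an adjusted p under 0.05. Before adjustment, 23 (8.39%) were lower and 3 (1.09%) higher. DESeq2's Wald test also called 0 members, with 11 miRNAs lower and 0 higher in all. The log2 fold change (log2FC) of mutants over controls was negative for 3 members and positive for 2. Its median over the members was −0.062, beside a median of 0.035 and 54.4% positive values over all 274 miRNAs.

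miR-16-5p, the most abundant member, stood at 2567 and 2548 scaled CPM in mutants 1 and 2, against 2521 and 2861 in controls 1 and 2. Both mutants lay between the controls. Means were 2557 ± 13.9 and 2691 ± 241, respectively (SD, n = 2), with a log2FC of −0.073 ± 0.25 (SE, adjusted p = 0.963, edgeR). The 95% interval of the log2FC ran from −0.65 to 0.51, so mutant levels of 0.636 to 1.42 times the control level lay within it.

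miR-15b-5p, from the same Smc4 intron as Mir16-2, stood at 619 and 506 scaled CPM in mutants 1 and 2, against 450 and 726 in controls 1 and 2. The controls again enclosed both mutants. The log2FC was −0.062 ± 0.30 (SE, 95% interval −0.75 to 0.63, adjusted p = 0.984, edgeR). Its sign rested on single libraries, being 0.090 without mutant 2, 0.28 without control 2, −0.21 without mutant 1 and −0.33 without control 1.

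miR-15a-5p, the member particular to Dleu2, had the lowest log2FC of the 5. It stood at 65.7 and 71.6 scaled CPM in mutants 1 and 2, against 88.9 and 98.7 in controls 1 and 2. Both mutants were below both controls, as for 67 (24.5%) of the 274 miRNAs, while for 49 (17.9%) both were above. Means were 68.7 ± 4.17 and 93.8 ± 6.88, respectively (SD, n = 2), with a log2FC of −0.45 ± 0.31 (SE, 95% interval −1.18 to 0.28, adjusted p = 0.638, edgeR). The gap between genotypes depended on the scaling. As a plain share of its library, miR-15a-5p made up 0.00768% and 0.00813% in mutants and 0.00824% and 0.00803% in controls, where the genotypes overlapped.

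miR-195a-5p, from chromosome 11, stood at 53.9 and 44.3 scaled CPM in mutants 1 and 2, against 44.9 and 43.4 in controls 1 and 2. Mutant 1 stood above the other 3 libraries, which lay close together. The log2FC was 0.16 ± 0.35 (SE, 95% interval −0.66 to 0.97, adjusted p = 0.922, edgeR).

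miR-497a-5p, its cluster partner, was the least abundant member, with 18 and 7 counts in mutants 1 and 2, against 19 and 12 in controls 1 and 2. In scaled CPM this was 23.7 and 11.9 for mutants and 15.8 and 13.0 for controls, so the mutants enclosed the controls. The 7 counts of mutant 2 had an exact Poisson 95% interval of 2.81 to 14.4. The log2FC of miR-497a-5p was 0.32 ± 0.49 (SE, 95% interval −0.83 to 1.47, adjusted p = 0.856, edgeR), and it was −0.27 without mutant 1. Mutant levels from 0.563 to 2.78 times the control level lay within the interval, which reflects the spread between libraries as well as their depth.

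**Figure D2:**
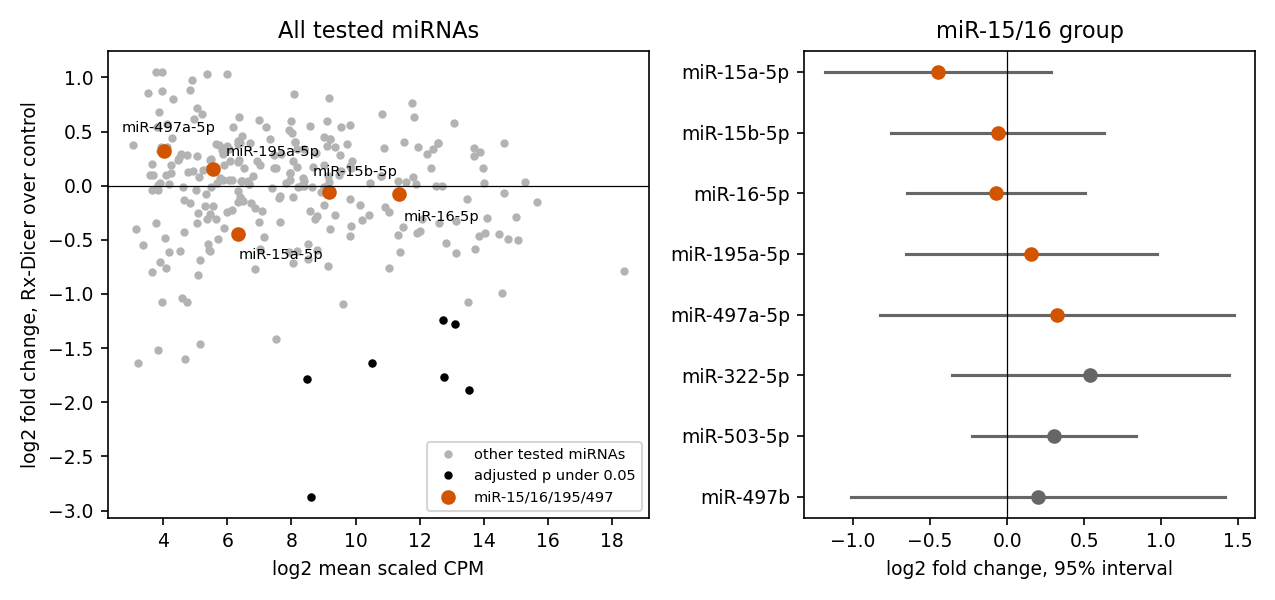
Left, log2 fold change (Rx-Dicer over control) against log2 mean scaled CPM for the 274 tested miRNAs, with the members in orange and the 7 miRNAs at an adjusted p under 0.05 in black. Right, log2 fold changes with 95% intervals of the members (orange) and of miR-322-5p, miR-503-5p and miR-497b (grey), all of which include 0.

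The sign of the log2FC of each member but miR-15a-5p depended on how the libraries were set to a common level, since this choice moved all miRNAs together. Using library totals alone, the median log2FC of the 274 miRNAs was 0.44, and miR-15b-5p and miR-16-5p stood at 0.37 and 0.34. Using red-cell miRNAs as the common level (miR-144-5p, miR-451a and miR-486a-5p summed), the median was −0.37, and miR-15b-5p and miR-16-5p stood at −0.45 and −0.48. Upper-quartile scaling gave 0.037 and 0.025 for the same miRNAs. Under each of these scalings, as under TMM and DESeq2's size factors, miR-15b-5p and miR-16-5p lay slightly below the median of all miRNAs. miR-15a-5p lay further below it, and miR-195a-5p and miR-497a-5p lay above it. No member reached an adjusted p under 0.05 under any of them. With red-cell miRNAs as the common level, miR-15a-5p was the member that fell below 0.05 before adjustment in edgeR (unadjusted 0.0262, adjusted p = 0.177). In that setting 61 of the 274 miRNAs did so in the lower direction, against 0 in the other.

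**Figure D3:**
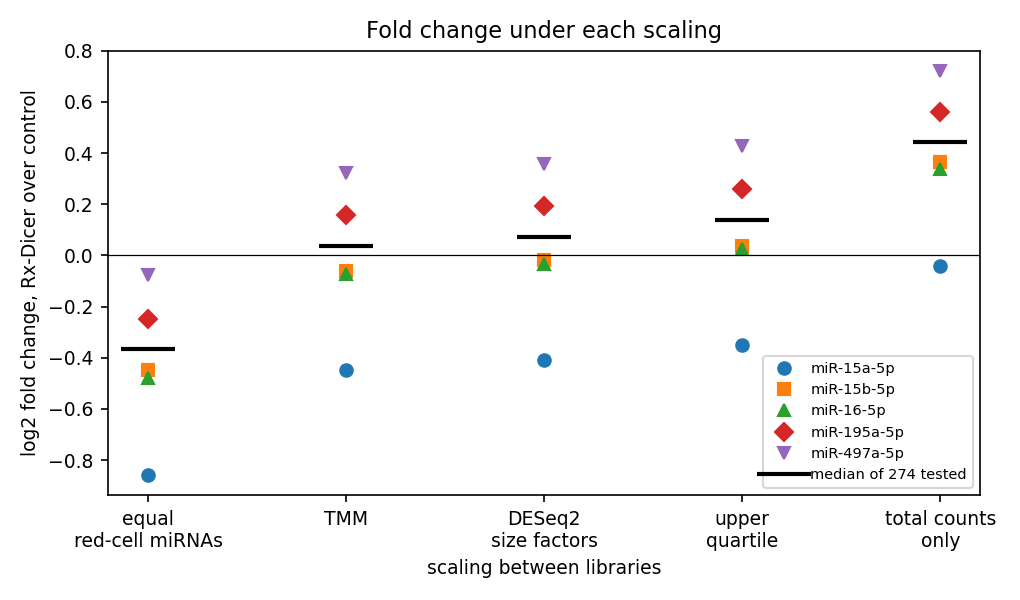
Log2 fold change (Rx-Dicer over control) of each member under 5 scalings, with a black dash for the median of the 274 tested miRNAs. The members moved with the median, which was −0.37 when red-cell miRNAs were set equal and 0.44 when only library totals were used.

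As a plain share of the library, the 5 members together held 0.389% of mutant 1, with a 95% Wilson interval from 0.374 up to 0.405, and 0.361% of mutant 2 (0.345 to 0.378). They held 0.289% of control 1 (0.280 to 0.298) and 0.305% of control 2 (0.295 to 0.315). These intervals cover counting error only, and libraries of a genotype differed by more than that. Means were 0.375% ± 0.0197 and 0.297% ± 0.0109, respectively (SD, n = 2), a difference of 0.0784 percentage points with both mutants above both controls. By plain share, both mutants were above both controls for 133 (48.5%) of the 274 miRNAs, and the median log2FC on library totals was 0.44, above the values of miR-15b-5p and miR-16-5p. In TMM-scaled CPM, the sums were 3330 and 3182 in mutants and 3121 and 3743 in controls, where the genotypes overlapped. miR-9-5p took 28.2% and 29.4% of the mutant libraries and 31.5% and 42.6% of the control libraries. When it was left out of the total, the shares were larger in all libraries and control 2 lay between the mutants. The difference in means for the 5 members was then 0.0503 percentage points.

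Within the family, miR-16-5p took 77.1% and 80.1% of the counts in mutants 1 and 2, against 80.8% and 76.5% in controls 1 and 2. miR-15b-5p took 18.6% and 15.9% in mutants and 14.4% and 19.4% in controls. These shares are parts of 1 total that the pair nearly fills, so a higher share of one goes with a lower share of the other. miR-15a-5p took 1.97% and 2.25% in mutants and 2.85% and 2.64% in controls, the only member whose part of the family did not overlap between genotypes. miR-195a-5p took 1.51% ± 0.160 in mutants and 1.30% ± 0.197 in controls, and miR-497a-5p took 0.543% ± 0.237 and 0.427% ± 0.112 (SD, n = 2).

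Ratios of members within a library do not depend on the scaling. The ratio of miR-15a-5p to miR-15b-5p compares the members particular to the Dleu2 and Smc4 loci. Output of these host genes was not measured, and short reads could be shared by this pair if 1 mismatch was allowed. The ratio was 0.106 and 0.141 in mutants 1 and 2, against 0.197 and 0.136 in controls 1 and 2. Control 2 lay between the mutants, and the mean log2 ratio differed by −0.42 (exact permutation test, two-sided, p = 0.667, adjusted p = 1 over the 3 ratios compared). The ratio of miR-16-5p to miR-15b-5p was 4.15 and 5.03 in mutants and 5.60 and 3.94 in controls, where the controls enclosed the mutants. Its mean log2 value differed by −0.040 (exact permutation test, two-sided, p = 1). The ratio of miR-195a-5p to miR-497a-5p was 2.28 and 3.71 in mutants and 2.84 and 3.33 in controls, where the mutants enclosed the controls. Its mean log2 value differed by −0.082 (exact permutation test, two-sided, p = 1). A comparison of 2 libraries with 2 cannot give a p under 0.333 in this test.

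**Figure D4:**
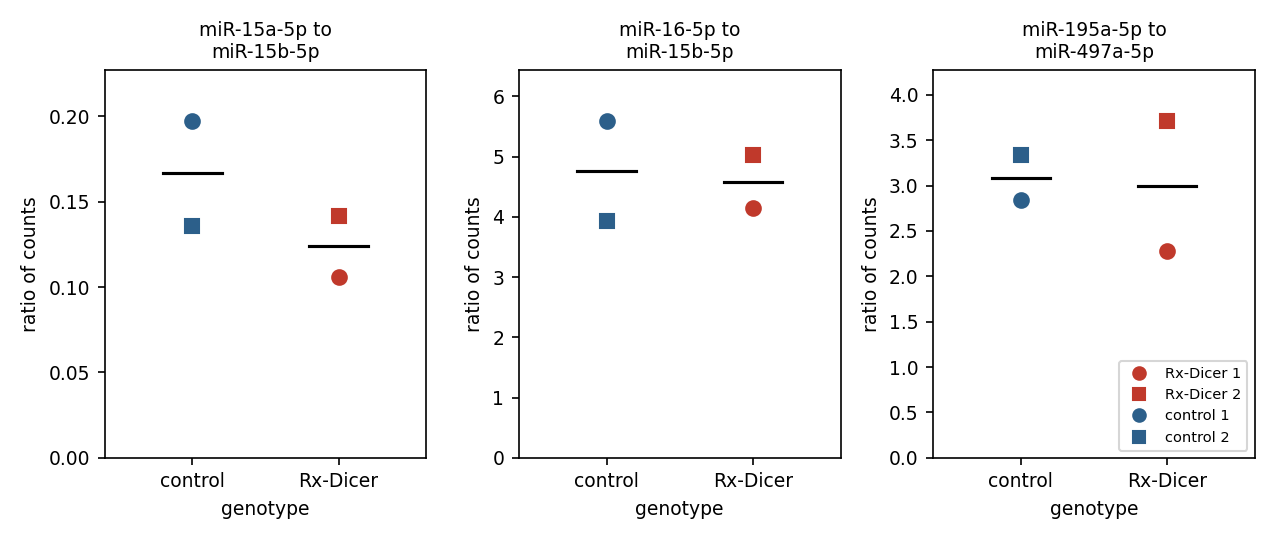
Ratio of counts between members within each library, by genotype, with circles for replicate 1, squares for replicate 2 and a bar for the mean (n = 2 libraries). The genotypes overlap in each of the 3 ratios, and the controls alone span 3.94 to 5.60 for miR-16-5p to miR-15b-5p.

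Of the other miRNAs with the same seed, miR-322-5p was the only one with counts. miR-322-5p, from a cluster on chromosome X and known from muscle differentiation, had 159 and 84 counts in mutants 1 and 2, against 105 and 144 in controls 1 and 2. Its scaled CPM overlapped between genotypes, with a log2FC of 0.54 ± 0.38 (SE, 95% interval −0.36 to 1.44, adjusted p = 0.638, edgeR). It took 5.91% and 4.31% of all counts on the shared seed in mutants and 2.72% and 4.0% in controls, so the 5 members held 94.1% to 97.3%. miR-195b, miR-6353 and miR-6419, which share the seed, had 0 counts in each library, which allows a share of up to 0.000231% in control 1 and up to 0.000581% in mutant 2. miR-6342 was not analysed here.

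A list of relatives had 14 names, of which 4 were analysed and 3 reached the count minimum, and 0 were called in either direction. miR-503-5p, a neighbour of miR-322 that matches the seed of the members at bases 2 to 7 but not at base 8, averaged 477 scaled CPM in mutants and 387 in controls. Both mutants were above both controls, as for 49 (17.9%) of the 274 miRNAs, with a log2FC of 0.30 ± 0.23 (SE, adjusted p = 0.659, edgeR). miR-497b, whose annotated hairpin overlaps that of Mir497 and which has another seed, had 11 and 7 counts in mutants and 10 and 14 in controls, with a log2FC of 0.20 ± 0.52 (SE, adjusted p = 0.952, edgeR). The median log2FC of these 3 relatives was 0.30.

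Other miRNAs known to restrain cycling were read beside the family, 15 in all (8 let-7 miRNAs, miR-98, the miR-34 and miR-449 miRNAs and miR-26). Of these, 7 were called lower, 6 let-7 miRNAs and miR-98-5p, and 0 higher, with a median log2FC of −1.08. These 7 were all the calls among the 274 miRNAs (2.55%). The number of calls was 0 with a replicate block, 0 without control 1, 0 without control 2, 1 without mutant 1 and 5 without mutant 2. The list was drawn up with the let-7 result known, so its count is not independent evidence. For the 6 miR-17 family miRNAs of the list, known to promote cycling, 0 were called, and the median log2FC was 0.35.

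The contrast between miR-16-5p and the let-7 seed family was measured as a ratio within each library. The ratio of miR-16-5p to let-7i-5p was 0.846 and 0.769 in mutants 1 and 2, against 0.218 and 0.285 in controls 1 and 2. Over the 9 let-7-seed miRNAs of the list, the difference in mean log2 ratio ran from 0.54 for let-7e-5p to 2.73 for let-7b-5p. These ratios were chosen with the lower let-7 levels and the level of miR-16-5p known, so they restate both and are given as a description. The exact permutation test (two-sided) gave p = 0.333 for each of the 9, the smallest value it can give. On ratios chosen in this way it decides nothing. They share the counts of miR-16-5p, and near-identical let-7 miRNAs can share reads.

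The miRNAs whose levels ran most like those of each member were found by the root mean square distance between log2 scaled CPM, centred over the 4 libraries, among the 194 miRNAs with a mean of at least 50. miR-16-5p was nearest to miR-148a-5p (distance 0.063), miR-99b-5p (0.066) and miR-361-5p (0.072). miR-15b-5p was nearest to miR-872-5p (0.053), miR-434-5p (0.084) and miR-140-5p (0.087). miR-15a-5p was nearest to miR-186-5p (0.078), miR-325-5p (0.094) and miR-301b-5p (0.107), and miR-195a-5p to miR-146a-5p (0.019), miR-501-5p (0.069) and miR-127-5p (0.087). For miR-497a-5p the nearest were miR-299a-3p and miR-299b-3p (0.214 each), which had the same values as each other, and miR-299a-5p (0.217). No member was among the 3 nearest of another, but miR-195a-5p and miR-497a-5p, with means below 50, could not be listed as neighbours. Among the members, miR-16-5p and miR-195a-5p were closest (0.165), followed by the cluster partners miR-15a-5p and miR-16-5p (0.194) and miR-15b-5p and miR-16-5p (0.205), while miR-195a-5p and miR-497a-5p stood at 0.254. These distances rest on 4 libraries and include counting error.

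miRNAs of other cell types were read beside these results. The 3 red-cell miRNAs, from a cell type in which miR-16 is also abundant, had a summed scaled CPM of 7595 and 8504 in mutants and of 5737 and 6362 in controls. This was higher in both mutants, as were miR-451a and miR-486a-5p by themselves, while miR-144-5p and miR-16-5p overlapped, and none of the 3 was at 0. The mesenchymal miRNAs (4 of 4 tested) summed to 11170 and 10645 in mutants and to 4207 and 10478 in controls. The endothelial miR-126a-5p stood at 431 and 244 in mutants and at 253 and 403 in controls. The white blood cell miRNAs (3 of 5 analysed, 2 tested) summed to between 88.1 and 139 in all libraries, with the mutants above the controls for miR-142a-5p and below them for miR-150-5p (log2FC 0.46 and −1.04, neither called). The mutants were also above the controls for miR-223-5p, which was not tested, with 11 and 9 counts in mutants and 8 and 6 in controls (14.5 and 15.3 against 6.65 and 6.51 scaled CPM). The 5 eye miRNAs (4 tested) summed to 1424 and 14156 in mutants and to 3456 and 7055 in controls. Most of this sum was miR-182-5p and miR-183-5p, which overlapped between genotypes, as did miR-96-5p. miR-204-5p was lower in both mutants, at 88.1 and 81.8 against 135 and 155 (log2FC −0.77, adjusted p = 0.473, edgeR). miR-211-5p, below the count minimum, had 8 and 6 counts in mutants and 11 and 9 in controls. Its scaled CPM was 10.5 and 10.2 against 9.14 and 9.76, and no direction is read from counts this low. Of the forebrain miRNAs (5 of 5 tested), miR-9-5p stood at 240960 and 259150 scaled CPM in mutants and at 339850 and 524060 in controls, and made up nearly the whole sum (245050 to 527730). miR-124-5p was also lower in both mutants, and miR-92b-5p, miR-128-1-5p and miR-135a-5p overlapped. For comparison, both mutants were above both controls for 17.9% of all 274 tested miRNAs and below both for 24.5%. Of the markers in these lists 0 were called, and their part in the values of the 5 members was not tested.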

How the data were processed

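Small RNA libraries were made by the study with a NEB Next Small RNA kit from total RNA of frozen, papain-dissociated tissue pieces, and sequenced as single-end reads. The authors checked the reads with FastQC (version 2.6.14 in the submitters' notes) and obtained counts with miRDeep2, on mm10 and miRBase. The deposited counts are whole numbers, 1 row per mature name and precursor (1211 rows), and are not normalized. The version of miRDeep2 is not given in the sources used here.

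Here, the row with the highest total stood for a mature name, and a miRNA needed 10 counts in 2 libraries to enter the test (274 did). The software was R 4.3.3 with edgeR 4.0.16 (quasi-likelihood test, TMM, genotype alone in the model), and p-values were Benjamini-Hochberg adjusted and called under 0.05. Standard errors and intervals were derived from the F statistic. Ratios of members were compared by exact permutation tests over libraries. Named miRNAs were the members, miRNAs with their seed, a list of relatives, lists of cell-cycle and cell-type miRNAs, and the 3 nearest patterns per member. Members and lists were chosen with earlier results of these data known. The ratios to let-7 were added after seeing the data, so their permutation p-values are not read as evidence.

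Alternatives were other scalings, the Wald test of DESeq2 1.42.0 (named by the study), other count minimums and uses of precursor rows, a replicate block, and each library left out. Scripts were tested on simulated data. The sources do not say whether libraries came from separate embryos, so p-values measure the spread between these libraries. The 2 libraries of a genotype differed by more than sampling noise in each case (chi-square per degree of freedom of 57.6 for mutants and 255 for controls), so none was counted as a copy.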

Additional observations from a re-analysis of the deposited data

How the results depend on the processing

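No member passed the threshold in any alternative in which it was tested, with adjusted p of 0.177 or more. That lowest value was for miR-15a-5p with red-cell miRNAs set equal, where its unadjusted p was 0.0262. The log2 fold change of miR-15a-5p was negative in all of its 13 alternatives, between −0.86 (red-cell miRNAs set equal) and −0.042 (library totals alone). Signs turned for the others. Library totals alone gave 0.37 for miR-15b-5p and 0.34 for miR-16-5p, and upper-quartile scaling gave 0.037 and 0.025. Red-cell miRNAs set equal gave −0.25 for miR-195a-5p and −0.075 for miR-497a-5p, and no count minimum gave −0.0053 for miR-195a-5p. The median of all tested miRNAs was 0.44, 0.14, −0.37 and −0.14 in these settings. With a minimum of 100 counts, miR-15a-5p, miR-195a-5p and miR-497a-5p fell out of the test.

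When each library was left out, in a fit that takes the lone library of a genotype to vary like the others, log2 fold changes ranged from −0.50 to −0.38 for miR-15a-5p, −0.33 to 0.28 for miR-15b-5p, −0.12 to −0.021 for miR-16-5p, 0.0096 to 0.30 for miR-195a-5p and −0.27 to 0.71 for miR-497a-5p. Log2 ratios ranged from −0.69 to −0.15 for miR-15a-5p to miR-15b-5p, −0.29 to 0.21 for miR-16-5p to miR-15b-5p and −0.43 to 0.27 for miR-195a-5p to miR-497a-5p. The share of the 5 members differed by 0.0503 percentage points when miR-9-5p was taken out of the total, where the genotypes overlapped. It differed by 0.106 when precursor rows were summed, in which miR-16-5p counts on both hairpins.

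Calls of lower miRNAs, 7 in the main comparison, numbered 4 with DESeq2's size factors, 0 with library totals alone, 3 with upper-quartile scaling, 11 with red-cell miRNAs set equal, with the Wald test of DESeq2 and with all precursor rows, 14 with no count minimum, and 0 to 5 when a library was left out. A replicate block left 0 calls (before adjustment, 20 lower and 4 higher). Deviations of same-numbered libraries correlated at 0.083, so the numbers do not show a pairing. The cause of these differences was not tested.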
